A study of Mus musculus with 7 samples.

Results

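Neutrophil granule genes encode the proteases, peroxidase, iron-binding and antimicrobial proteins that neutrophils store in granules. They were followed here in the livers of fasted mice through 10 genes, of which 4 belong to the early (primary) granules, Mpo, Elane, Prtn3 and Ctsg, and 6 are late, Ngp, Camp, Ltf, S100a8, S100a9 and Cd177. They were chosen by gene name among the non-control probes of the array, where 12 of 55681 probes, for 10 of 36315 gene names, belonged to them. The study hybridised liver RNA from 3 wild type (WT) and 4 SHIVA mice, 1 mouse per array, to single-colour Agilent arrays labelled with Cy3. The WT group was C57BL/6 and the SHIVA group carried a Sox17 mutation on the C57BL/6 background. All 7 mice were females of 8 to 12 weeks and had been fasted for 24 h before the livers were taken. SHIVA is a line from a chemical mutagenesis screen in which the HMG domain of Sox17, a transcription factor, carries an amino acid change in every cell of the mouse, blood cells included. The mutation is kept by crossing to C57BL/6, and by the study's supplement the living mutants carry it on a single allele. Whether blood was flushed from the livers is not given in the sources used here.

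Neutrophils are short-lived white blood cells that fill their granules in a fixed order while they mature in bone marrow. Primary granules, with myeloperoxidase and the serine proteases, are filled at the promyelocyte stage. Secondary and tertiary granule proteins such as lactoferrin and cathelicidin follow at the myelocyte and metamyelocyte stages, and mature neutrophils that circulate and enter the liver carry little mRNA for the primary granule proteins. S100A8 and S100A9 are abundant cytosolic proteins of the mature cell, listed here with the late genes, and CD177 is a surface glycoprotein also found in secondary granules.

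Each array carried 62976 spots, none of them saturated, and 44.5 to 48.7% of its probes were well above background by the scanner software's own test. All 7 arrays lay on 1 slide and in 1 scan, with the WT arrays in slide row 1 and the SHIVA arrays in slide row 2, so that row and genotype cannot be told apart. With 7 arrays, precision is limited by their number. SHIVA replicate 4 stood apart from SHIVA replicates 1, 2 and 3 in most of the members, and the members and lists are given with and without that mouse. Over all genes tested it did not stand apart in this way. Its array correlated at 0.989, 0.983 and 0.988 with SHIVA replicates 1, 2 and 3 and at 0.981 to 0.989 with the WT arrays. SHIVA replicate 2 correlated at 0.972 to 0.984 with the other arrays. The median background-subtracted signal over all probes was 9.07 to 10.2 in the WT livers, 10.9 to 11.8 in SHIVA replicates 1, 2 and 3 and 9.82 in SHIVA replicate 4, before the arrays were brought to a common distribution, and the part of this difference in brightness in the results was not tested. Of the tissue's own markers, 10 of 10 hepatocyte genes were well above background on all 7 arrays, and albumin (Alb) read 18.26 to 18.37 in the WT livers and 18.28 to 18.39 in the SHIVA livers on the log2 scale. Bringing the arrays to a common distribution fixes the top of the scale, so nothing is read from how close these albumin values are.

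The array reads each gene through 60-base probes, and the probes decide which transcript is seen. The first 30 bases are printed for the early genes, whose probes gave opposite pictures for neighbouring genes, and for Camp, which had a pair of overlapping probes.
Mpo, first probe: gaaggacggaggccattggccttcctgtgc
Mpo, second probe: cctgccaaactgaatcgccagaatcaaatt
Elane: gctcccccctctaccagagacctctccatt
Prtn3: ttccagaacaattacaaccccgaggagaac
Ctsg: gacgctttgcaccaagatatcagagacctg
Camp, first probe: acttgtacctcagccagagtagtaggcctg
Camp, second probe: cagccggagcagtaggcctgccttggcctg
In mm9, the build of the files, the Mpo probes lie on the plus strand at chr11:87617840-87617899 and chr11:87615121-87615180. The Elane probe lies at chr10:79350902-79350961 and the Prtn3 probe at chr10:79343869-79344685, both on the plus strand, the latter over 817 bases of the genome for its 60 bases of transcript. The Ctsg probe lies on the minus strand at chr14:56718795-56718854. The Camp probes, at chr9:109749911-109749970 and chr9:109749901-109749950 on the minus strand, share 50 bases and differ from each other at 2 of them. The files do not say whether a probe lies in coding sequence or in a UTR.

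Several members sit close together in the genome. In the GRCm38.p6 annotation, Prtn3 and Elane are 3.1 kb apart on chromosome 10, S100a8 and S100a9 are 22.6 kb apart on chromosome 3, and Camp, Ngp and Ltf follow each other on chromosome 9 with gaps of 570.4 and 596.3 kb. The 250 bases before the annotated start are printed for the early genes, as a group, and for Ngp and Ltf, the late genes that were detected in the same 3 livers as Mpo and Prtn3. Capitals mark matches, on either strand, to GAGGAA, the core bound by PU.1, to TTGCNNAA, a C/EBP site, and to TGTGGT, the RUNX core. PU.1, the C/EBP factors and RUNX1 are known regulators of granulocyte genes.
Mpo, chr11:87793534-87793783, plus strand: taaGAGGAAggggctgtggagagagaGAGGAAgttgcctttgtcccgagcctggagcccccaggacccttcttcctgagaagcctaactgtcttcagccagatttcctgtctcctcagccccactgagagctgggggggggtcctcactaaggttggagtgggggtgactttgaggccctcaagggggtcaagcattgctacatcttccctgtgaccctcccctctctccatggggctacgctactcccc
Elane, chr10:79886062-79886311, plus strand: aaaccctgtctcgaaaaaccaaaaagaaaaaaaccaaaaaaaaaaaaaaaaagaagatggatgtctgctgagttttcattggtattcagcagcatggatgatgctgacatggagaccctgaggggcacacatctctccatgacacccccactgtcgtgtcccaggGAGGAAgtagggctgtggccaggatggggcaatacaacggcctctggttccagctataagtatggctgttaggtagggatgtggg
Prtn3, chr10:79879417-79879666, plus strand: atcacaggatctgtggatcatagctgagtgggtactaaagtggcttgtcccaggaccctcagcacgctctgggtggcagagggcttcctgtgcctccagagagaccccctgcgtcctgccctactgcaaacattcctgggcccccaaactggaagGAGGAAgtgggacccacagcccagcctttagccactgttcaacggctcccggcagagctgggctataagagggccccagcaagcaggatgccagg
Ctsg, chr14:56102575-56102824, minus strand: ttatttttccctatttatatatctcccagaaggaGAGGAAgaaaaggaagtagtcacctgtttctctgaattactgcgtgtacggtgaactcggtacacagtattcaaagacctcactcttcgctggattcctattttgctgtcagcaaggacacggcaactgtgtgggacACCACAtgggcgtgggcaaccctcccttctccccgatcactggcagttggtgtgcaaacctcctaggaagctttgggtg
Ngp, chr9:110419558-110419807, plus strand: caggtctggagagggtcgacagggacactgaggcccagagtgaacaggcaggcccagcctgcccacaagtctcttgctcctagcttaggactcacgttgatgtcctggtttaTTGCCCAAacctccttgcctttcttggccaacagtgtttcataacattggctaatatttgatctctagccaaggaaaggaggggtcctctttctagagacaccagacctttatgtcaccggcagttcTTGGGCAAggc
Ltf, chr9:111019042-111019291, plus strand: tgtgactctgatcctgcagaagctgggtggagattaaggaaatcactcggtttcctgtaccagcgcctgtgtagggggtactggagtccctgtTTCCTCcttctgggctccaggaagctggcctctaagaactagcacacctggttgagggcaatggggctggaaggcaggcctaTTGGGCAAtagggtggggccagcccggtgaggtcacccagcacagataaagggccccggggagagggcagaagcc
The sequences are those of RefSeq, and all 10 members had an entry. GAGGAA or its reverse complement was found in 7 of 10 members, which comprise the 4 early genes with Ltf, S100a8 and Cd177, against 23.3% of 32817 windows of the same length before annotated starts. In Prtn3 and Elane it began at -95 and -85, counted back from the base before the start, and was followed by GT in both. TTGCNNAA was found in 3 of 10 members, Ngp, Ltf and S100a9, against 9.57% of windows, and TGTGGT in 2 of 10, Ctsg and S100a9, against 14.0%. No matches overlapped one another in these windows, and the Camp window held none of these strings. A match is a string of letters, and no binding was measured here.

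The comparison of SHIVA with WT asks how the livers of the mutants differ under fasting. Of the 9 members that could be tested, the point estimates of 8 were higher in SHIVA, but none passed limma's test after Benjamini-Hochberg adjustment over all 19952 genes tested, where 75 genes, 0.376%, did. At an unadjusted p under 0.05, 4 of 9 members were higher in SHIVA, namely Mpo, Prtn3, Ctsg and Camp, against 7.24% of all genes tested. Mpo and Prtn3 passed the filter on dim probes only through SHIVA livers, as did Ngp and Ltf, so that filter and count are not independent and nothing is read from this share. The estimate was above 0 for 8 of 9 members, against 48.8% of all genes tested, whose median log2 fold change was -0.01. The same filter bears on this share of positive estimates, and nothing is read from it either. In whole tissue, fewer cells of a type and less RNA per cell cannot be told apart. Mouse by mouse, Mpo, Prtn3, Ngp and Ltf were detected in SHIVA replicates 1, 2 and 3 alone, Ctsg in those livers, in SHIVA replicate 4 and in 1 WT liver, and Elane, Camp, S100a8 and S100a9 in all 7 livers.

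Mpo encodes myeloperoxidase, the enzyme that makes hypochlorous acid from hydrogen peroxide. Its log2 signal was 1.24, 1.24 and 1.18 in the 3 WT livers, none of them well above background, and 6.19, 6.98, 6.80 and 1.16 in SHIVA replicates 1 to 4, of which the first 3 were well above background. Before normalization the same probe read 2.46, 2.34 and 2.19 in WT and 81.4, 143, 118 and 2.21 in SHIVA. SHIVA replicate 4 thus lay with the WT livers at the floor of the array, and the other SHIVA livers lay far above it. The second Mpo probe, in another stretch of the transcript, gave the same order, with background-subtracted signals of 34.4, 31.7 and 28.1 in SHIVA replicates 1 to 3 and 2.41 in SHIVA replicate 4, against 2.39 to 2.81 in WT. Because the WT livers were not well above background, the mean of the SHIVA livers is given as a bound, at least 3.51-fold higher than in WT, where each WT array stands at its lowest signal well above background or at the probe's own reading, whichever is higher. The fitted log2 fold change was 4.06 ± 1.26 (SE) with an adjusted p of 0.233 by limma, and 2.59 by the second probe. This size depends on the background correction, since it was 1.69 with the uncorrected mean signal, 1.70 with the authors' table and 1.16 with normexp. With normexp, an offset of 50 was added to every spot. The bounds given here hold for the background-subtracted signal alone.

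Prtn3 encodes proteinase 3, a serine protease of the primary granules. It read 2.31, 2.19 and 2.52 in WT, none well above background, and 6.02, 6.56, 5.77 and 3.10 in SHIVA, well above background in replicates 1 to 3. It was the only one of the 9 tested members whose genotypes did not overlap, against 12.2% of all genes tested, since SHIVA replicate 4 lay slightly above the highest WT liver, although neither was well above background. The SHIVA mean was at least 3.71-fold higher than in WT by the same bound, and the fitted log2 fold change was 3.02 ± 0.71 (SE), adjusted p 0.145 by limma, falling to 1.14 with the mean signal or the authors' table and to 0.73 with normexp. Ctsg encodes cathepsin G, another serine protease of these granules. It was well above background in 1 of 3 WT livers, with values of 3.12, 2.02 and 4.04, and in all 4 SHIVA livers, with 5.21, 5.84, 5.34 and 3.96. The groups overlapped through SHIVA replicate 4, which lay just below WT replicate 3, and the log2 fold change was 2.03 ± 0.53 (SE), adjusted p 0.186, with 0.75 by the mean signal or the authors' table and 0.45 by normexp.

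Elane encodes neutrophil elastase, and its probe went against the rest of the early group. It read 9.28, 9.27 and 9.03 in WT and 8.96, 9.15, 9.26 and 9.26 in SHIVA, well above background on all 7 arrays. The groups overlapped fully, and the log2 fold change was -0.04 ± 0.15 (SE), adjusted p 0.944 by limma. The lowest and the highest liver differed by far less than for Prtn3, its neighbour on the chromosome, and SHIVA replicate 4 did not stand apart. Elane was read by a single probe, so no second probe could be set beside it.

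**Figure D1:**
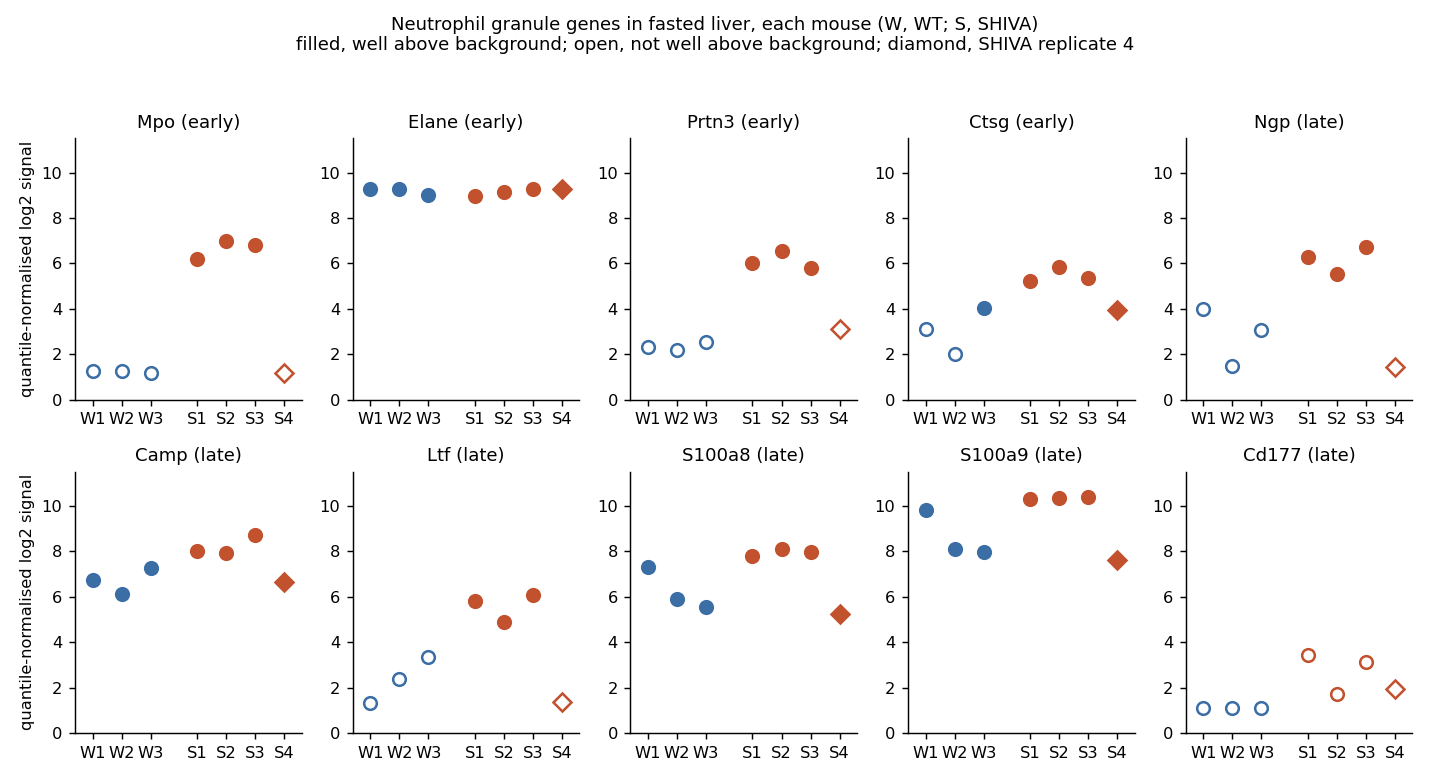
Quantile-normalised log2 signal (vertical axis) of the 10 granule genes in each of the 3 WT (W, blue) and 4 SHIVA (S, orange) livers, with filled symbols for probes well above background and SHIVA replicate 4 as a diamond. Mpo, Prtn3, Ngp and Ltf were filled in SHIVA replicates 1 to 3 alone, Elane was filled and level in all 7 livers, and Cd177 was open throughout.

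Among the late genes, Ngp and Ltf had the same pattern of detection as Mpo and Prtn3. Ngp encodes neutrophilic granule protein, a cystatin-like protein of the secondary granules. It read 3.98, 1.50 and 3.07 in WT and 6.29, 5.55, 6.71 and 1.44 in SHIVA, well above background in no WT liver and in SHIVA replicates 1 to 3. Ltf encodes lactoferrin, which binds iron, and read 1.31, 2.38 and 3.36 in WT and 5.81, 4.87, 6.06 and 1.35 in SHIVA, with detection in the same 3 livers. In both genes SHIVA replicate 4 lay within or below the WT range and the other SHIVA livers lay above it. The SHIVA means were at least 2.57-fold higher for Ngp and at least 2.07-fold higher for Ltf, and the fitted log2 fold changes were 2.15 ± 1.20 (SE), adjusted p 0.493, and 2.17 ± 1.06 (SE), adjusted p 0.429, by limma. The bound for Ngp takes the WT replicate 1 reading of 3.98 as it stands, because it exceeds the lowest detected signal of that array although it was not itself well above background. With the mean signal, the authors' table and normexp the fitted values were 1.06, 1.06 and 0.71 for Ngp and 0.79, 0.79 and 0.54 for Ltf.

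Camp, S100a8 and S100a9 were well above background in all 7 livers, WT included. Camp encodes the cathelicidin precursor, and read 6.72, 6.12 and 7.24 in WT and 8.03, 7.93, 8.70 and 6.63 in SHIVA. Its second probe gave 5.45, 5.02 and 5.36 in WT and 6.76, 6.80, 7.36 and 5.95 in SHIVA. By the first probe SHIVA replicate 4 lay inside the WT range, whereas by the second it lay above all WT livers, so that the probes disagree on whether the genotypes overlap. The log2 fold change was 1.13 ± 0.46 (SE) for the first probe, the brighter of the pair, with an adjusted p of 0.342 by limma.

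S100a8 and S100a9 encode the subunits of calprotectin, which binds calcium and withholds zinc and manganese from microbes. S100a8 read 7.30, 5.91 and 5.56 in WT and 7.78, 8.12, 7.98 and 5.25 in SHIVA. S100a9 read 9.81, 8.09 and 7.96 in WT and 10.31, 10.33, 10.40 and 7.62 in SHIVA. In both genes SHIVA replicates 1 to 3 lay close together above every WT liver, SHIVA replicate 4 lay below every WT liver, and WT replicate 1 was the highest of its group. The log2 fold changes, 1.02 ± 0.71 (SE) with an adjusted p of 0.593 and 1.04 ± 0.73 (SE) with an adjusted p of 0.596 by limma, did not pass the test. Cd177 was not well above background on any array and was not tested. Its readings, 1.09, 1.09 and 1.08 in WT and 3.41, 1.73, 3.13 and 1.94 in SHIVA, give no level, but by the scanner's weaker criterion of a positive and significant signal it was present in 4 of 4 SHIVA livers, replicate 4 included, and in 0 of 3 WT livers.

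Counted by liver, 1, 1 and 2 of 4 early genes were well above background in the WT mice, and 4, 4, 4 and 2 of 4 in the SHIVA mice. The late genes gave 3 of 6 in every WT liver and 5, 5, 5 and 3 of 6 in the SHIVA livers. SHIVA replicate 4 thus had the WT number of detected late genes, and of early genes the number of WT replicate 3. The median log2 fold change was 2.52 over the 4 early genes and 1.13 over the 5 late genes tested, against -0.01 over all genes tested. The early median mixes Elane with genes that had no measurable WT level, and the difference between early and late was not tested. Mpo and Prtn3 among the early genes, and Ngp and Ltf among the late ones, passed the filter only through SHIVA livers. Nothing is therefore read from the distance of either median to that of all genes. SHIVA replicate 4 was lower than every other SHIVA liver in 8 of the 9 tested members, the exception being Elane.

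Without SHIVA replicate 4, the same fit called 57 of 19749 genes, 0.289%, and 2 of 9 members among them. Mpo then had a fitted log2 fold change of 5.44 ± 0.22 (SE), adjusted p 0.00035, and Prtn3 one of 3.78 ± 0.23 (SE), adjusted p 0.0016, by limma. Both passed the filter through these same SHIVA livers, and their WT readings were not well above background, so that the sizes and errors are those of the array's floor and not of a measured WT level. Ctsg at 2.40 with an adjusted p of 0.10, Ltf at 3.23 with 0.067 and Ngp at 3.33 with 0.082 stayed above the threshold, as did Camp at 1.53 with 0.12, S100a8 at 1.70 with 0.16 and S100a9 at 1.73 with 0.18. The genotypes no longer overlapped in 8 of 9 members, all but Elane, where 20.8% of all genes tested in that fit did not. That mouse has no label that sets it apart from the other SHIVA mice. It is set aside here for its readings in these same genes, so the calls and the count without it restate those readings and support nothing further. Without SHIVA replicate 1, 2 or 3 in turn, Mpo, Prtn3, Ngp and Ltf fell under the detection filter and could not be tested.

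**Figure D2:**
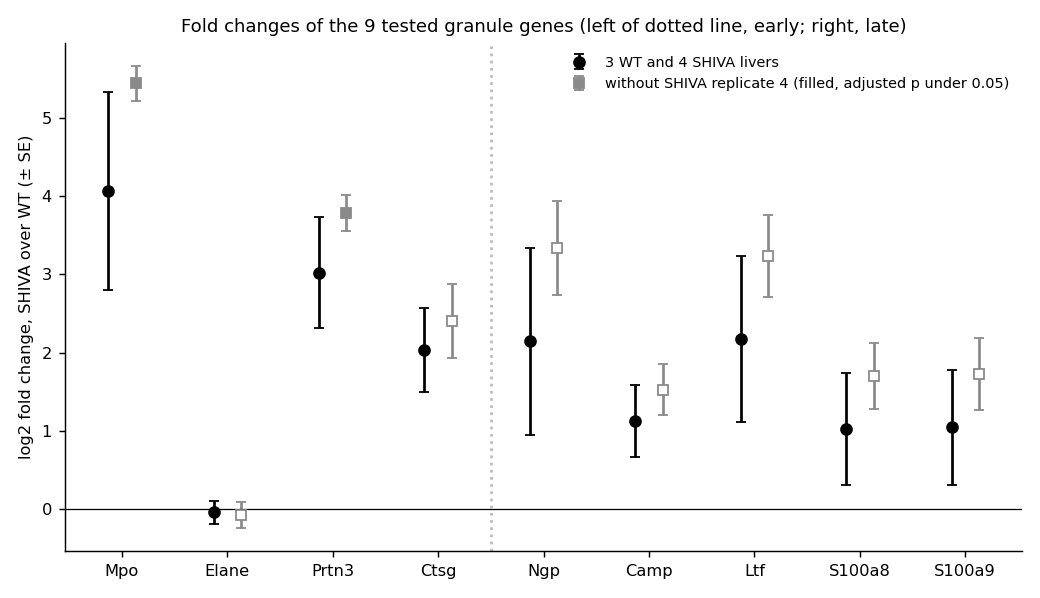
Log2 fold change of SHIVA over WT (vertical axis, ± SE) of the 9 tested granule genes with all 7 livers (black circles) and without SHIVA replicate 4 (grey squares, filled where the adjusted p was under 0.05). Leaving out that liver raised every estimate but that of Elane and narrowed most errors, most of all for Mpo and Prtn3, which were then called; for Mpo, Prtn3, Ngp and Ltf the WT livers were not well above background, so the fitted values are not bounds.

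Other granule and secreted neutrophil proteins gave mixed readings, with 13 of 30 genes well above background in all 7 livers, among them Lcn2, Hp and Wfdc21. Of the 30 genes on the array, 18 were tested, none was called, 14 had an estimate above 0 and the median log2 fold change was 0.28. A further 9 were not well above background on any array, among them Mmp8 and Mmp9, the neutrophil collagenase and gelatinase of the late granules, Olfm4 and Bpi. Prg2, the proteoglycan known as eosinophil major basic protein, read 2.69, 1.50 and 1.44 in WT and 4.51, 4.61, 4.94 and 1.46 in SHIVA, well above background in SHIVA replicates 1 to 3 alone. It was called without SHIVA replicate 4 and not with it, when the log2 fold change was 2.00 ± 0.79 (SE), adjusted p 0.323 by limma. Prg2 passed the filter only through SHIVA replicates 1 to 3, and its WT readings give no measured level. Its usual companion in eosinophils, Epx, was not well above background on any array. Lcn2, the lipocalin of secondary granules that hepatocytes also make, read 11.56, 10.83 and 11.23 in WT and 12.71, 14.52, 12.17 and 11.31 in SHIVA, highest in SHIVA replicate 2, and was not called (1.47 ± 0.64 (SE), adjusted p 0.373). Hp and Wfdc21, the other members of that list with the brightest probes, had estimates of 0.21 and -0.14. Hp also stands in the list of hepatocyte acute phase genes, so its signal is not a reading of neutrophils alone.

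Among the receptors of the neutrophil surface, 15 of 23 on the array were well above background in all 7 livers and 4 in SHIVA livers alone. Of these 23, 16 were tested, none was called, and the median log2 fold change was 0.46, with 13 of 16 above 0. The genotypes did not overlap in 1 of 16, a gene lower in SHIVA (-0.32), against 12.2% of all genes tested. Cxcr2, the chemokine receptor of mature neutrophils, was well above background in 0 of 3 WT and 2 of 4 SHIVA livers, and Il1r2, the decoy receptor, on no array. Csf3r, the receptor of the granulocyte growth factor, was level in all 7 livers, from 13.95 to 14.09 in the WT mice and from 13.93 to 14.12 in the SHIVA mice. Itgam, the alpha chain of Mac-1, gave -0.67 ± 0.21 (SE), adjusted p 0.244 by limma, and Fcgr3 gave 0.07.

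The 5 tested subunits of the phagocyte NADPH oxidase, which supplies the hydrogen peroxide for myeloperoxidase, all had positive estimates, from 0.31 to 0.61 with a median of 0.59, and none was called. Cyba, the small membrane subunit, read 11.06, 10.63 and 11.39 in WT and 11.65, 12.03, 11.64 and 11.13 in SHIVA. Ncf4 gave 0.60 ± 0.28 (SE) and Rac2 0.61 ± 0.28 (SE), adjusted p 0.411 and 0.401 by limma. In all of these SHIVA replicate 4 lay within the WT range. Macrophages express the same subunits.

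The transcription factors that drive granule genes gave no call either, with 7 of 10 tested and a median of 0.23. Cebpe, needed for the late granules, averaged 8.34 ± 0.62 (SD, n = 3) in the WT mice against 8.65 ± 0.33 (SD, n = 4) in the SHIVA mice, and Spi1, which encodes PU.1, averaged 5.16 ± 0.42 and 5.39 ± 0.63. Cebpa, Cebpb and Cebpd, which hepatocytes express, had estimates of -0.44, -0.31 and -0.04. Gfi1 and Myb, factors of the immature granulocyte, were not well above background on any array.

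Of 14 chemoattractants, cytokines and their receptors, 5 were tested and all 5 had positive estimates, with a median log2 fold change of 1.61 and no call. Cxcl1, a chemokine that draws neutrophils, read 5.42, 4.00 and 5.44 in WT and 7.72, 6.89, 7.96 and 5.99 in SHIVA, so that the genotypes did not overlap, SHIVA replicate 4 included. Its log2 fold change was 2.19 ± 0.52 (SE), adjusted p 0.145 by limma. Il1b, the cytokine interleukin-1 beta, read 4.38, 2.70 and 6.17 in WT and 7.15, 7.53, 6.90 and 6.37 in SHIVA and did not overlap either, with 2.57 ± 0.69 (SE), adjusted p 0.191. The genotypes thus did not overlap in 2 of 5 tested genes, against 12.2% of all genes tested. Il1b was well above background in 2 of 3 WT livers, as were Ccl4, whose estimate is the median, and Tnf. The 2.70 of Il1b in WT replicate 2 lay under that array's lowest detected signal of 3.54, so the size of its estimate rests in part on the floor. In Cxcl1 and Il1b SHIVA replicate 4 was the lowest SHIVA liver but stayed above the WT livers, whereas in Mpo, Ngp, Ltf, S100a8 and S100a9 it did not. Ltb4r1, the leukotriene receptor, gave 0.33. Cxcl2, Cxcl5 and Csf3 were not well above background on any array.

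Among inhibitors of neutrophil enzymes, 9 of 10 on the array were tested, with a median of 0.04 and no call. Serpina1a, Serpina1c and Serpina1e, the alpha-1 antitrypsins that hepatocytes secrete against elastase, had estimates of 0.04, 0.04 and -0.02. These paralogs are near-identical in sequence, and their probes may read each other's transcripts. Their probes also stand near the top of the scale, which is common to the arrays, so nothing is read from how small these estimates are. Slpi, the secretory leukocyte protease inhibitor, read 7.49, 7.12 and 6.97 in WT and 7.75, 8.25, 8.10 and 7.92 in SHIVA without overlap, with 0.81 ± 0.19 (SE), adjusted p 0.135 by limma; it was named here after its values were seen.

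Markers of the other cells of the liver were read in the same way. Kupffer cell markers, of which 12 of 12 were tested and 11 had positive estimates, had a median of 0.36, and the mean log2 signal of the list ranged from 9.88 to 10.98 in WT and from 10.32 to 11.23 in SHIVA. Clec4f, which defines these cells, ran from 12.36 to 13.27 in the WT mice and from 12.54 to 13.13 in the SHIVA mice, and Cd5l and Csf1r gave 0.66 and 0.47. Monocyte markers had a median of 0.59 over 6 of 8 genes, and the list ranged from 9.24 to 9.35 in WT and from 9.22 to 10.01 in SHIVA, with Ccr2 not well above background on any array. Of the 6 tested monocyte genes, 5 had estimates above 0. The bright probes of Ms4a4c and Fn1 gave 0.53 ± 0.14 (SE) and 0.57 ± 0.33 (SE), and whether their signal came from monocytes was not tested. Plac8, Cx3cr1 and F13a1, named after their values were seen, gave 0.61, 0.86 and 1.13. F13a1 passed the filter only through SHIVA livers. The exception was Ly6c1, which endothelial cells also express, at -0.83 ± 0.19 (SE), adjusted p 0.141 by limma. The genotypes did not overlap in 3 of 6, Ms4a4c, Cx3cr1 and Ly6c1, against 12.2% of all genes tested. Hepatocyte markers had a median of -0.01 over 10 genes, with -0.04 for Apoa2, and endothelial markers one of 0.08 over 9, with -0.07 for Stab2, -0.29 for Kdr and -0.26 for Clec4g. The part of these cells in the results for the granule genes was not tested.

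Other blood cells were read through shorter lists. Erythroid markers had a median of 0.09 over 8 of 11 genes, among them Hba-a1, an alpha globin, with 0.43 ± 0.23 (SE) and an adjusted p of 0.465 by limma, Alas2, of heme synthesis, with 0.63 and no overlap, and Epor with -0.17. Platelet markers had a median of 0.49 over 6 of 9, with 0.64 for Pf4, 0.61 for Itgb3 and -0.32 for Itga2b. B cell markers had one of 0.16 over 8 of 10, with 0.15 for Cd79b, 0.01 for Vpreb3 and -0.21 for Cd22, and T and NK cell markers one of 0.03 over 8 of 10, with -0.22 for Cd4, 0.10 for Nkg7 and -0.13 for Cd3e. The eosinophil list, of which 2 genes were tested, had a median of 0.93 between Prg2 at 2.00 and Ear6 at -0.15, and Tpsb2, the single mast cell gene tested, gave -0.12. Of the mast cell and basophil markers, 7 of 8 were not well above background on any array, and of the eosinophil markers 5 of 7. Proliferation markers, which immature granulocytes would carry, had a median of 0.15 over 7 of 10, and all 7 estimates were above 0. The brightest, Tk1, Pcna and Birc5, gave 0.15, 0.12 and 0.09, whereas Mki67 averaged 4.76 ± 0.26 (SD, n = 3) in the WT mice and 5.87 ± 0.88 (SD, n = 4) in the SHIVA mice, adjusted p 0.318, and Ccna2 gave 1.06 ± 0.35 (SE), adjusted p 0.254 by limma, both without overlap, and Mcm5 gave 0.81. Mki67, Ccna2 and Mcm5 were named after their values were seen. No gene of any of these lists was called.

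Acute phase genes, which hepatocytes switch on under inflammation, had a median of 0.47 over 20 genes, 18 of them positive, and no call. Fgb, the fibrinogen beta chain, read 17.48, 17.78 and 17.71 in WT and 18.27, 18.26, 18.26 and 17.73 in SHIVA, so that here too SHIVA replicate 4 lay inside the WT range, and C3 gave 0.26 without overlap. In SHIVA replicates 1 to 3 Fgb stood near the top of the scale. That top is common to the arrays, so the closeness of these Fgb readings is partly set by it. Saa1 and Saa2, the serum amyloids, peaked in SHIVA replicate 2 at 17.73 and 17.36, while the other SHIVA livers read 12.82 to 13.97 and 11.98 to 12.82. The granule genes had no such single peak in SHIVA replicate 2. Saa1 and Saa2 were also named after their values were seen.

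The place of SHIVA replicate 4 on the side of the WT livers was shared by several of these lists. The mean of the tested monocyte markers, each centred on its own 7-mouse mean, was -0.32, -0.30 and -0.21 in WT and 0.33, 0.46, 0.38 and -0.34 in SHIVA. The acute phase genes read -0.42, -0.50 and -0.11 in WT and 0.29, 0.91, 0.15 and -0.33 in SHIVA on the same scale. The other granule genes and the oxidase subunits also had SHIVA replicate 4 within or below the WT range, at -0.44 and -0.32. The proliferation markers peaked in SHIVA replicate 2 instead. They read -0.25, -0.28 and -0.30 in WT and 0.07, 0.96, 0.03 and -0.22 in SHIVA, with SHIVA replicate 4 just above the WT livers. Without that liver the genotypes did not overlap in 7 of 18 other granule genes, 7 of 16 surface receptors, 3 of 5 oxidase subunits and 4 of 5 chemoattractants and cytokines. The same count was 5 of 6 for monocyte markers, 13 of 20 for acute phase genes, 4 of 7 for proliferation markers, 1 of 12 for Kupffer cell markers and 2 of 10 for hepatocyte markers, where 20.8% of all genes tested did not overlap. The medians without it were 0.39 for the other granule genes, 0.64 for the receptors, 0.75 for the oxidase, 1.98 for the chemoattractants and cytokines, 0.76 for monocyte and 0.62 for acute phase genes. Prg2 was the only gene of these lists that was called without it. That liver was set aside for its readings in the granule genes, so these counts, medians and the call depend on that choice. Prg2 also follows the late granule genes over the 7 mice, and its call supports nothing further.

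**Figure D3:**
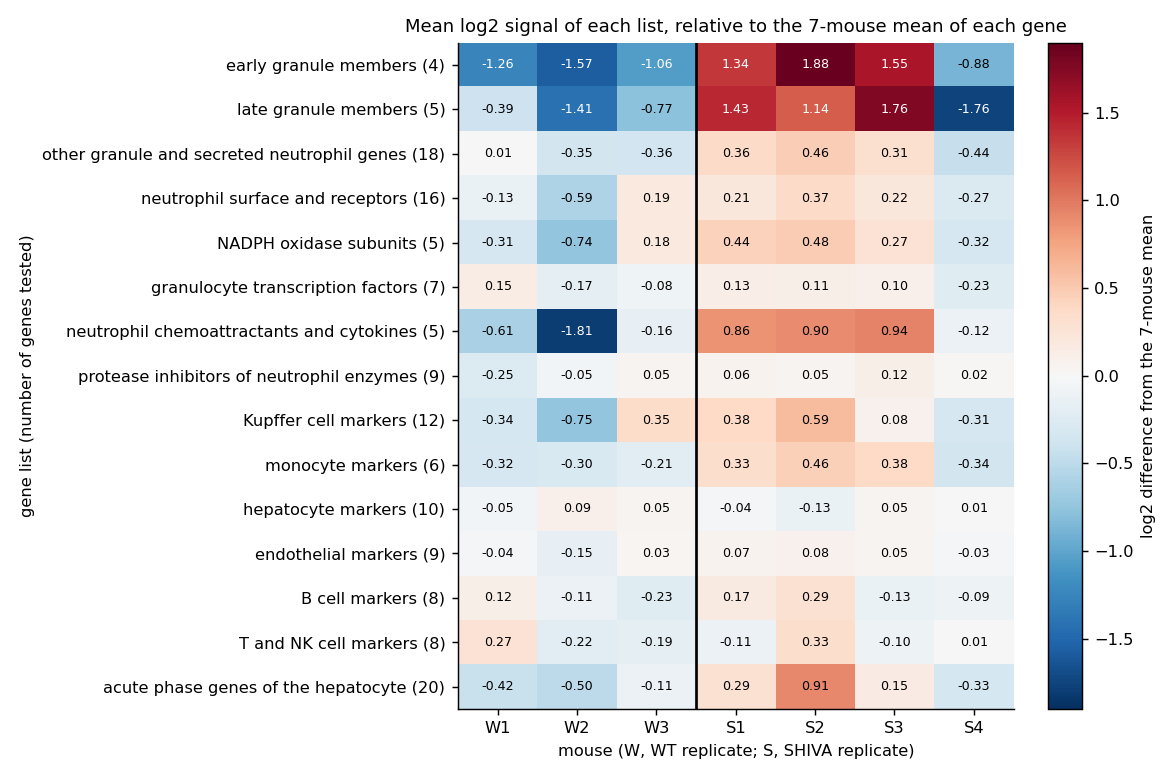
Mean over the tested genes of each list of the log2 difference from that gene's 7-mouse mean (colour and printed value), by mouse (columns, W for WT and S for SHIVA) and list (rows, number of genes tested in brackets). The early and late granule genes run from -1.76 to 1.88, hepatocyte markers stay between -0.13 and 0.09, and SHIVA replicate 4 is on the side of the WT livers in the granule lists and also in the monocyte (-0.34) and acute phase (-0.33) lists.

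The mean of the 5 tested late genes, each centred on its own mean, was -0.39, -1.41 and -0.77 in the WT livers and 1.43, 1.14, 1.76 and -1.76 in the SHIVA livers. The genes outside the 10 members whose log2 signal followed this profile most closely over the 7 mice, of 19902 ranked, were Chil3 (Pearson's r 0.989), Sh3bp2 (0.984), the transcript ENSMUST00000115043 (0.981), Cybc1 (0.976) and Prg2 (0.974). Chil3 encodes a chitinase-like protein secreted by myeloid cells, and Cybc1 a protein needed for the NADPH oxidase subunit gp91phox. Chil3 read 4.48, 3.61 and 3.95 in WT and 5.73, 5.35, 6.15 and 3.63 in SHIVA. It was well above background in only 2 of 3 WT and 3 of 4 SHIVA livers. Sh3bp2, which encodes a signalling adaptor, spanned a narrow range from 8.28 to 8.74. The mice fall into a high and a low set in this profile, so r mostly records that split, and no test was made of it. Of the early members, Mpo had an r of 0.94, Prtn3 of 0.89, Ctsg of 0.81 and Elane of -0.35 with the late profile.

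**Figure D4:**
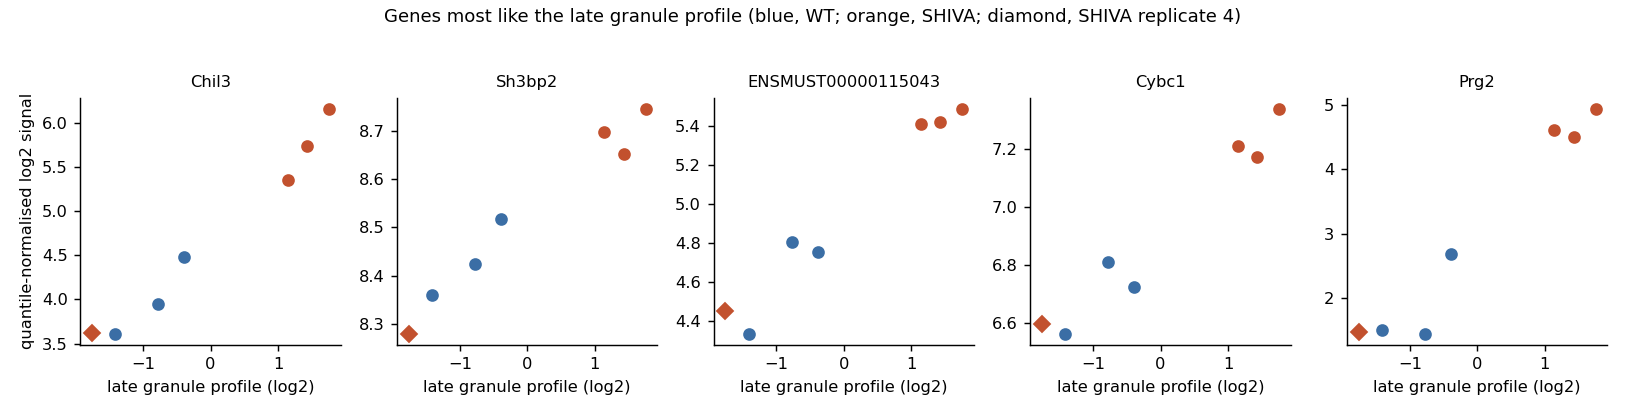
Quantile-normalised log2 signal (vertical axes, each with its own range) of the 5 genes most like the late granule profile, against that profile (horizontal axes, mean centred log2 signal of 5 late genes), 1 point per mouse, blue for WT, orange for SHIVA and a diamond for SHIVA replicate 4. SHIVA replicates 1 to 3 sit at the upper right of every panel, from 1.14 to 1.76 on the profile, and SHIVA replicate 4 at -1.76 sits with or beyond the WT livers.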

How the data were processed

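Liver RNA of 3 WT and 4 SHIVA mice was read on single-colour arrays. The authors extracted signals with Agilent Feature Extraction 10.5.1.1, per the labels. The deposited scanner files hold background-subtracted processed intensity, mean signal intensity and detection flags per spot, and the deposited table holds log2 values that follow the mean signal. The methods state quantile normalization.

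Here log2 of the processed intensity was quantile-normalised over 7 arrays, without controls and flagged spots. Spots of a probe were averaged, and the probe with the highest mean stood for a gene. Genes well above background on at least 3 arrays were compared with limma 3.58.1 in R 4.3.3 (genotype, Benjamini-Hochberg, threshold 0.05), and the code was tested on simulated data. RefSeq (GRCm38.p6) named 31007 of 55681 probes. Mice were labelled as separate animals. The members and lists were chosen with earlier results of these data known. Named genes were the 10 members, every called gene and the 3 brightest of each list, and the 5 most like the late profile; other genes of the lists were named for their role after their values were seen. Alternatives were other background corrections, scalings, filters, probes and tests, array weights, a replicate block, and leaving out each mouse.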

Additional observations from a re-analysis of the deposited data

Results flagged for a closer look

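A SHIVA liver lay far from the other SHIVA livers in 7 of 63 genes searched, where chance gives such a liver in about 1 of 20 groups, or 3.15 genes. SHIVA replicate 4 was the distant liver in 6 of them. Among the granule genes, it read 1.16 in Mpo against 6.19 to 6.98 in the others, 5.25 in S100a8 against 7.78 to 8.12, and 7.62 in S100a9 against 10.3 to 10.4. Outside them, it read 1.46 in Prg2 against 4.51 to 4.94, 17.73 in Fgb against 18.26 to 18.27, and 4.45 in the transcript ENSMUST00000115043 against 5.41 to 5.49. The last and Prg2 were chosen for their likeness to the granule genes. The seventh was Apoa2, an apolipoprotein, where SHIVA replicate 2 read 18.30 against 18.31 in the others, a gap of little size near the top of the scale. Fgb also reads near that top, which is common to the arrays, so the closeness of its other SHIVA livers is partly set by it. The genes flagged here move together and are not separate observations.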

How the results depend on the processing

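The number of genes called over all genes moved from 75 to 140 with the uncorrected mean signal, 127 with the authors' table, 261 with array weights, 32 with a replicate block, 13 without the filter on dim probes and 0 of 19952 with the methods' t-test, by which 2294 genes had an unadjusted p under 0.05, with 0 members called and 2 at that unadjusted p. Leaving out single mice gave 3 to 414 (3 without WT replicate 1, 8 without WT replicate 2, 414 without WT replicate 3, 7 without SHIVA replicate 1 and 13 without SHIVA replicate 3). The number of members called was 0 to 2 when single mice were left out and 3 with the replicate block. Over all alternatives that tested them, estimates ran from 1.16 to 5.44 for Mpo and from 0.73 to 3.78 for Prtn3, lowest with normexp. Without single mice, they ran from 4.04 to 5.44 for Mpo and from 2.95 to 3.78 for Prtn3, over the 4 fits that tested these genes. For Elane they ran from -0.12 to 0.029. Elane was positive at 0.006, 0.001 and 0.029 without WT replicate 1, WT replicate 2 and SHIVA replicate 1. The replicate block, in which SHIVA replicate 4 has no partner and adds nothing to the estimate, gave 5.44 for Mpo, 3.78 for Prtn3 and 3.33 for Ngp with adjusted p of 0.0047, 0.023 and 0.047 by limma and called no other member. Deviations of same-numbered mice correlated at -0.05, 0.01 and 0.24. Mice with different numbers were not compared in this way, so these values cannot settle whether the numbers pair the mice. The replicate number is also the column of the array on the slide.

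The early median of 2.52 was 0.94 with the mean signal, 0.95 with the authors' table and 0.59 with normexp. The mean signal and the authors' table keep the background under dim probes, and normexp carried the added offset of 50. When single mice were left out, the early median was 0.87 to 3.09. Without SHIVA replicate 1, 2 or 3 it covered only 2 genes, Elane and Ctsg. Over genes detected on all 7 arrays it was -0.038, where Elane was the single early gene. The late median was above 0 in all 17 alternatives, from 0.71 to 1.73, but not over the same genes. Only 3 late genes, without Ngp and Ltf, were tested without SHIVA replicate 1, 2 or 3 and among genes detected on all 7 arrays. List genes called were 2 with the mean signal (Slpi and Ly6c1), 1 each with the authors' table (Slpi), array weights (Cxcl1) and the block (Cxcl1), and 0 to 1 without single mice. The criterion of positive and significant signal raised the detected readings of members from 45 to 59 of 70, Cd177 included. Dim signal limits Mpo, Prtn3, Ngp and Ltf to bounds in WT.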
